A study of Homo sapiens with 3 samples.

Results

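Astrocytes made with FGF8 and collected at day 210 of differentiation were compared with neuroepithelial cells collected at day 17. Both cultures derive from H9, an established line of human embryonic stem cells, which were taken off mouse embryonic fibroblasts at day 0 and passed through embryoid bodies. The astrocyte culture had been given fibroblast growth factor 8 (FGF8), a signal that in the embryo is made by the anterior neural ridge and the midbrain-hindbrain boundary, from day 10 to day 21. The neuroepithelial culture had been given no morphogen. Total RNA of each was hybridised to 1 Affymetrix human expression array, so 2 of the 3 arrays of the series enter the comparison. The remaining array, of astrocytes at day 210 that had been given retinoic acid (RA) over the same days, took part in the normalization, and its values stand beside some genes. Age, cell type and FGF8 differ together between the compared arrays and cannot be told apart. With 1 array in each group there is no replicate, no test and no standard error, so every fold below compares these arrays, and their number limits the precision.

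The array carries 54675 probe sets, of which 54613 are no controls and 41091 of those map to 1 gene symbol. They represent 19775 genes, each taken by its brightest probe set. A signal is a linear intensity after quantile normalization, which gives all arrays the same distribution. Signals under 26.4, the median over all probe sets and written here as the floor, were raised to it. Where a gene was at the floor on 1 of the arrays, its fold is bounded from below and carries the words "at least". A gene at the floor on both, as 6771 were, was not compared. In bulk RNA, fewer cells of a type and less RNA per cell cannot be told apart.

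Among the 13004 genes that could be compared, 1666 (12.8%) had at least 2-fold more signal in the FGF8 astrocytes, 1332 (10.2%) were at least 2-fold lower, and 10006 (76.9%) lay within 2-fold. The median log2 difference, astrocytes minus neuroepithelial cells, was 0.05 over all compared genes. Genes at least 16-fold apart numbered 78 in each direction. Of genes past 2-fold, 55.6% were higher, and that share was 75.8% with array medians set equal instead, a scaling that moved the median of all genes to 0.42. List medians below are therefore read against 0.05. Under that scaling 21.9% of compared genes were higher and 7.02% lower, the median of 19 of the 59 function lists changed sign, and in 29 lists the balance of higher and lower calls changed, turning round in 17. Where either happened to a list described below, its counts or medians with equal array medians stand beside it. The shares of 12.8% and 10.2% are the background for every count of list members that follows.

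**Figure D1:**
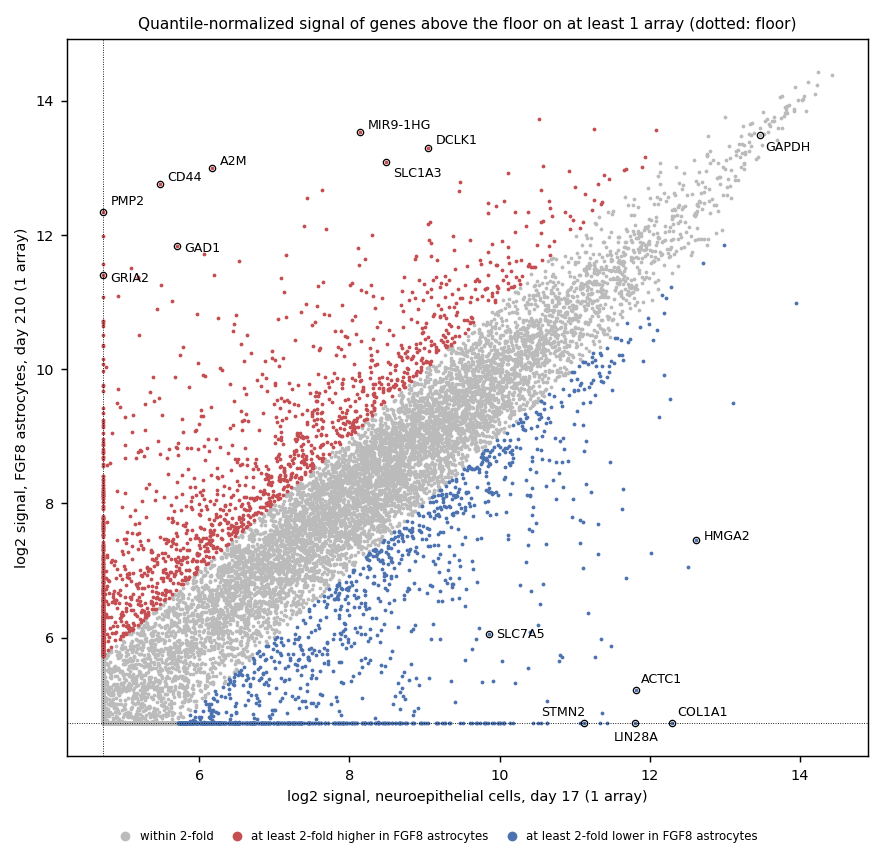
Each point is a gene above the floor on at least 1 array, with the log2 signal in neuroepithelial cells on the x axis and in FGF8 astrocytes on the y axis (1 array each), coloured by whether it was at least 2-fold apart. Dotted lines mark the floor of 4.72, and circles mark named genes, among them PMP2 and GRIA2 at the floor in neuroepithelial cells and COL1A1 and LIN28A at the floor in astrocytes.

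The arrays also differed in RNA measures. For ACTB, the ratio of 3' to 5' signal, which is higher in shortened or incompletely labelled RNA, was 1.33 on the neuroepithelial array and 6.63 on the FGF8 array, and for GAPDH it was 0.98 and 1.65. The RA array resembled the FGF8 array, with 6.67 for ACTB and 1.79 for GAPDH. Spiked-in transcripts differed by 0.12 ± 0.16 log2 units (SD over 18 probe sets). The part of RNA length in any difference below was not tested. Where a gene past 2-fold had other bright probe sets, 70.9% of those 1166 were past 2-fold in the same direction and 0.6% in the opposite one.

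The labels were checked against marker genes. Of 22 astrocyte markers compared, 15 were at least 2-fold higher and 2 lower, with a summed signal of 15686 in neuroepithelial cells and 67499.9 in FGF8 astrocytes. GFAP, the astrocyte intermediate filament, had a signal of 3053 in the FGF8 array against the floor in neuroepithelial cells, at least 116-fold higher. AQP4, the water channel of astrocyte endfeet, and S100B, a calcium-binding protein of glia, went from the floor to 4057 and 1685, at least 154-fold and at least 63.9-fold higher. The lower astrocyte markers were APOE and ALDOC, described below. ALDH1L1, another astrocyte marker, was dim on both arrays at 38.0 and 43.4, within 2-fold. Of 20 neuroepithelial markers 14 were lower and none was higher, but SOX2 at 6962 and 9242 and NES at 2872 and 3331 lay within 2-fold. PAX6, a factor of early neural cells, was 3.64-fold lower, at 1841 and 506. The astrocyte culture also held neuronal transcripts. The GABAergic neuron markers summed to 4766 in neuroepithelial cells and 22277 in FGF8 astrocytes (9 of 15 higher, 3 lower), with LHX6, LHX8 and SST at the floor in the latter. Pan-neuronal markers summed to 20835 and 27995 (6 higher, 6 lower of 19), with STMN2 and RBFOX3 at the floor in the astrocytes. Markers of the oligodendrocyte lineage summed to 1081 and 8590 (4 higher, 2 lower of 10), against 3276 in RA astrocytes. Of 17 on the array 11 were at the floor in FGF8 astrocytes. PDGFRA, described below, is among these markers. The neuroepithelial culture in turn held transcripts of fibroblasts and pericytes (summed signal 16052 against 1166, 11 of 13 lower in astrocytes, 1 higher) and of endoderm and other epithelium (4405 against 255, 7 of 8 lower). Muscle markers summed to 4087 against 292 (4 of 8 lower, 1 higher), but ACTC1, which embryonic cells also use, gave 3598 of the 4087. Of 15 muscle markers on the array 9 were at the floor in neuroepithelial cells. Of 14 microglia markers 13 were at the floor on both arrays. The part of any of these other cells in the gene groups below was not tested.

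As background, astrocytes clear glutamate and potassium from around neurons, carry receptors that answer transmitters through calcium stores, store glycogen, pass lipid and lactate to neurons, and are coupled to vessels and synapses by fine processes. Neuroepithelial cells are the dividing, polarised sheet from which neurons and then glia of the central nervous system arise, joined at their apical side by junctions. The gene groups below follow those roles, from receptors and ion handling through metabolism to shape, surroundings and gene control.

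**Figure D2:**
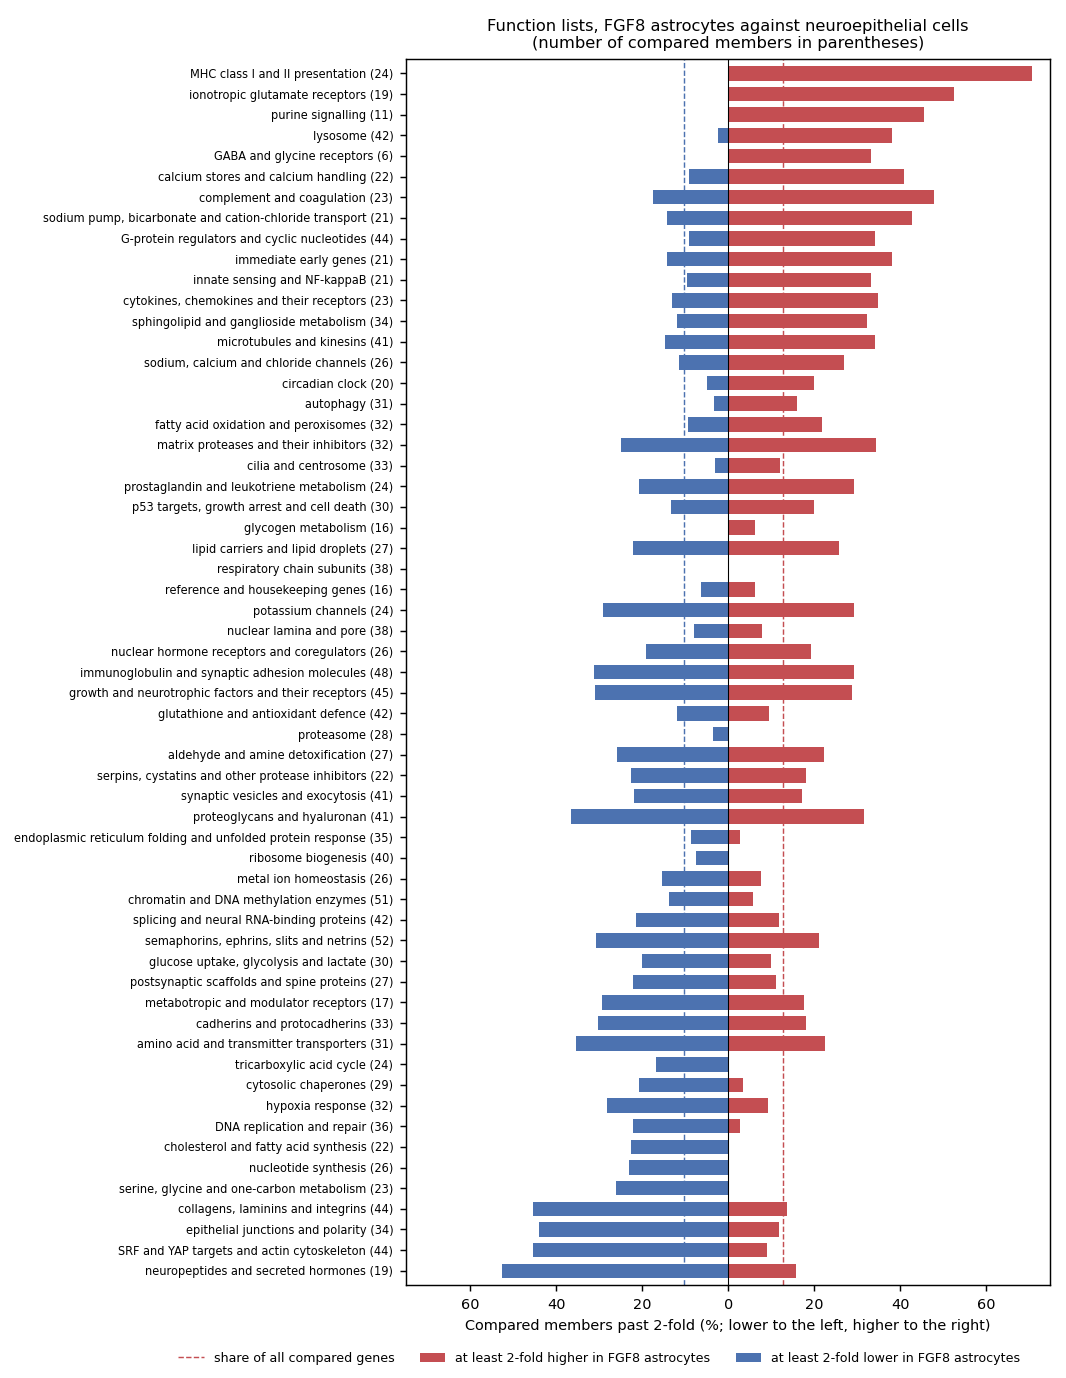
Bars give, for each function list, the percentage of compared members at least 2-fold higher (red, right) and lower (blue, left) in FGF8 astrocytes than in neuroepithelial cells (1 array each), sorted by the difference, with dashed lines at the shares of all compared genes (12.8% and 10.2%). Antigen presentation, glutamate receptor, purine and lysosome lists lie at the top and peptide, actin, junction and collagen lists at the bottom.

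Glial regulators and filament genes were among the 20 largest differences. NFIB, a nuclear factor that acts with its relative NFIA in the switch from making neurons to making glia, went from 66.99 to 3367, 50.3-fold higher, beside 85.8-fold for NFIA. The galectin LGALS3 was 32.9-fold higher and synemin SYNM, an intermediate filament protein that pairs with GFAP and vimentin, 36.9-fold higher. The secreted Wnt modulators SFRP2 and SFRP4 went opposite ways, SFRP2 from 5858 to 132 and SFRP4 from 49.7 to 2069.8. Among the 20 largest on the lower side were NELL2, a secreted glycoprotein of neural cells, from 4132 to 153, ANK3, the ankyrin of the axon initial segment, from 1180.4 to 40.1, and ENPP2, the lysophospholipase autotaxin, 20.9-fold lower.

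Among the largest differences stood a microRNA host transcript. MIR9-1HG, from which the precursor of miR-9 is cut, had a signal of 283 in neuroepithelial cells, 11829.6 in FGF8 astrocytes and 11354 in RA astrocytes, and was 41.8-fold higher in the FGF8 than in the neuroepithelial array. Of 36 microRNA host genes named as such on the array, 13 could be compared, 4 were at least 2-fold higher and 2 lower; apart from MIR9-1HG they were looked at after their values were seen. MIR100HG had signals of 483 and 1912 (3.96-fold higher), and MIR99AHG 87.5 and 280.5 (3.21-fold higher). The fourth higher host, MIR4435-2HG, was near the floor, at the floor and 54.8. The lower hosts were MIR124-2HG, at 369 and 91.1 (4.05-fold lower), and MIR181A2HG, at 230.1 and 109.9 (2.09-fold lower). The array measured these host RNAs and not the mature microRNAs. A selection of the mature sequences that lie inside 4 of these host genes is shown, with bases 2 to 8, the seed, in capitals (RefSeq, GRCh38.p14). They lie on the minus strand of chromosomes 1 and 11 for MIR9-1HG and MIR100HG, and on the plus strand of chromosomes 21 and 9 for MIR99AHG and MIR181A2HG. The sequences shown from MIR100HG and MIR99AHG have the same 3 seeds. Other mature sequences inside these hosts, some with other seeds, are left out.
hsa-miR-9-5p (MIR9-1HG): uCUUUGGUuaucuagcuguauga
hsa-miR-9-3p (MIR9-1HG): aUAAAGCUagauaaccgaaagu
hsa-let-7a-5p (MIR100HG): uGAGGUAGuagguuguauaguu
hsa-let-7c-5p (MIR99AHG): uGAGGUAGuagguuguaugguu
hsa-miR-100-5p (MIR100HG): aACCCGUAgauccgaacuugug
hsa-miR-99a-5p (MIR99AHG): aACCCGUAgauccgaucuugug
hsa-miR-125b-5p (both): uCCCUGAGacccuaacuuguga
hsa-miR-181a-5p (MIR181A2HG): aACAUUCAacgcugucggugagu
The let-7a and let-7c sequences share 1 seed, miR-100 and miR-99a share another, and both clusters hold an identical miR-125b. The LIN28 proteins, which block the maturation of let-7, went the other way. LIN28A had a signal of 3584 in neuroepithelial cells and LIN28B of 2589, and both were at the floor in FGF8 and RA astrocytes, at least 136-fold and at least 98.2-fold lower. TRIM71, a target of let-7, went from 2152 to the floor and HMGA2, another target and a chromatin protein of early stem cells, from 6317 to 176, 35.9-fold lower.

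Fast receptors for glutamate were among the groups in which most members past 2-fold were higher. Of 19 subunits and auxiliary proteins compared, 10 were higher and 0 lower, with a median of 1.02. GRIA2, the AMPA receptor subunit that keeps calcium out, was at the floor in neuroepithelial cells and at 2723 in FGF8 astrocytes, at least 103-fold higher. GRIA3, another AMPA subunit, had 34.5 and 537, GRIA1 had 132 and 499.9, and the kainate receptor subunit GRIK3 had 51.7 and 459.9, which are 15.6-fold, 3.79-fold and 8.89-fold higher. CNIH3, a cornichon protein that attaches to AMPA receptors, was 4.71-fold higher. In the RA array GRIA2 stood at 1494 and GRIA3 at 888, also above neuroepithelial cells, while GRIK3 at 62.6 was near them.

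Receptors for GABA and for modulators were mixed. Of the GABA and glycine receptor list only 6 genes could be compared, of which 2 were higher and 0 lower: GABBR2, the signalling subunit of the GABA-B receptor, went from the floor to 532 (at least 20.2-fold higher), and the glycine receptor beta subunit GLRB was 3.76-fold higher. GABRQ, the theta subunit of the GABA-A receptor, is not on that list and was among the largest bounds, at the floor and 1602, against 60.3 in RA astrocytes. The cannabinoid receptor CNR1 went from 87.5 to 1526, 17.4-fold higher, and the muscarinic receptor CHRM3 was at least 2.85-fold higher. Going down were HTR2C, a serotonin receptor typical of choroid plexus, from 437 to the floor (at least 16.6-fold lower), and GRM3, a glutamate receptor that mature astrocytes carry in the brain, from 165 to the floor (at least 6.24-fold lower). The modulator receptor list had 3 higher and 5 lower of 17 (5 higher and 5 lower of 18 with equal array medians, where the median went from -0.31 to 0.05), and 21 of its members were at the floor on both arrays.

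Genes of purine signalling leaned higher. Astrocytes release ATP, cut it to adenosine at the cell surface and sense both. Of 11 compared members 5 were higher and 0 lower (median 0.92). With all probe sets of a gene averaged, 2 of 10 were higher and 0 lower (median 0.85). The adenosine receptor ADORA2B went from 36.4 to 436, 11.999-fold higher. The surface enzymes ENTPD1, which removes phosphates from ATP, and NT5E, which makes adenosine, and the ATP-gated channel P2RX7 were all at the floor in neuroepithelial cells and at 86.4, 159 and 114 in FGF8 astrocytes. ADK, the kinase by which astrocytes remove adenosine, was 2.4-fold higher.

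Potassium channels went both ways, with 7 higher and 7 lower of 24 (9 higher and 6 lower with equal array medians). KCND3, a pore subunit of the fast A-type current, was at the floor in neuroepithelial cells and at 2150.1 in FGF8 astrocytes, at least 81.5-fold higher, and KCNIP4, a protein that binds such channels, was 6.81-fold higher. KCNJ10, the inward rectifier through which astrocytes buffer potassium, went from the floor to 483, and KCNJ8, the pore of an ATP-sensitive channel, from 34.2 to 165. Those lower included KCNQ3 of the M-current, from 222 to the floor (at least 8.42-fold lower), KCNC1, a channel of fast-firing cells, 5.73-fold lower, and KCNMA1, the large-conductance calcium-activated channel, 4.14-fold lower.

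Other channels and ion transporters leaned higher. Of 26 sodium, calcium and chloride channel genes 7 were higher and 3 lower. SCN1A, a voltage-gated sodium channel, went from the floor to 1081 (at least 40.98-fold higher) and CACNB2, an accessory subunit of calcium channels, from the floor to 563. MLC1, an astrocyte membrane protein needed for volume control, went from the floor to 287. In the list of the sodium pump, bicarbonate and cation-chloride transport 9 of 21 were higher and 3 lower, with a median of 0.64. The glial pump subunit ATP1B2 was 7.62-fold higher (59.4 and 453), the sodium-bicarbonate carrier SLC4A4 8.07-fold higher and the surface carbonic anhydrase CA12 11.2-fold higher. The cytosolic carbonic anhydrase CA2 was instead 2.83-fold lower, at 501 and 177, against 1535 in RA astrocytes.

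Genes of calcium stores and of G-protein signalling, through which astrocytes answer transmitters, also leaned higher. Of 22 calcium genes 9 were higher and 2 lower (median 0.67). ITPR2, the inositol trisphosphate receptor that astrocytes use most, went from the floor to 192. PLCB1, the phospholipase upstream of it, was 5.57-fold higher, STIM2, a sensor of store calcium, 5.68-fold higher, and the kinase CAMK2D 3.69-fold higher. SLC8A1, the sodium-calcium exchanger, was lower, from 133 to the floor. Of 44 G-protein and cyclic nucleotide genes 15 were higher and 4 lower (median 0.57). With all probe sets of a gene averaged, 8 were higher and 2 lower of 36 (median 0.20). The higher genes included the cyclic AMP phosphodiesterase PDE8B at the floor and 299.97 and the adenylyl cyclase ADCY8 at the floor and 133. RGS5, a G-protein brake best known from pericytes, ran opposite, from 1070.3 to the floor, at least 40.6-fold lower. It is itself 1 of the fibroblast and pericyte markers counted above.

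**Figure D3:**
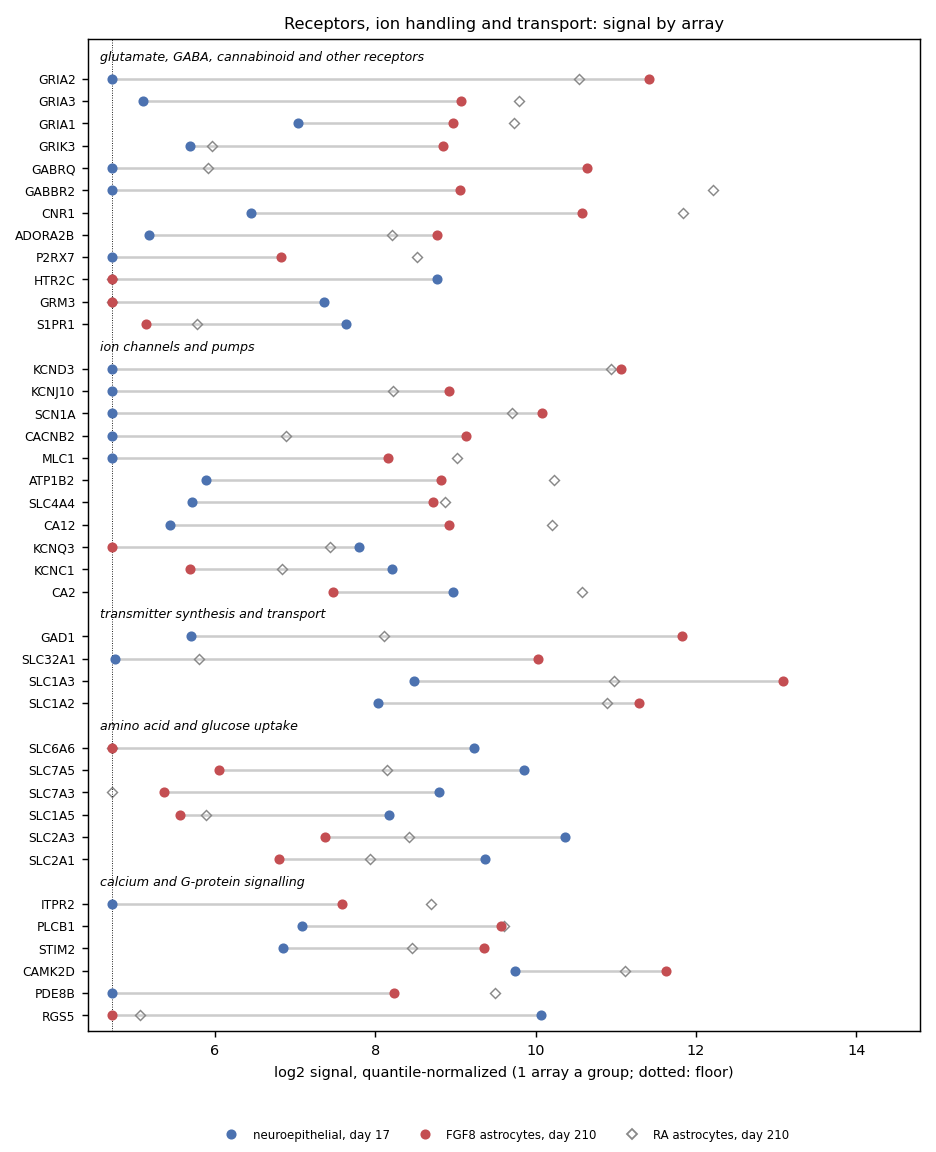
Dots give the log2 signal (x axis) of named receptor, channel, transporter and signalling genes in neuroepithelial cells (blue) and FGF8 astrocytes (red), joined by a line, with RA astrocytes as open diamonds; 1 array each. GRIA1, GRIA2, GRIA3, GRIK3, KCND3 and SLC1A3 signals lay to the right in FGF8 astrocytes. The glutamate receptor GRM3 and amino acid and glucose carriers such as SLC6A6, SLC7A5 and SLC2A3 lay to the left.

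Transporters of amino acids and transmitters went both ways. The list held 7 higher and 11 lower of 31 (9 higher and 10 lower with equal array medians, where the median went from -0.45 to 0.02). Among the higher, SLC1A3, the glutamate transporter GLAST, went from 359 to 8684 (24.2-fold higher) and SLC1A2, the transporter GLT-1, from 261 to 2496 (9.55-fold higher). SLC15A2, a peptide carrier of astrocytes, went from the floor to 269. Those lower included the taurine carrier SLC6A6 from 604 to the floor (at least 22.9-fold lower), the leucine carrier SLC7A5 from 925 to 66.5 (13.9-fold lower), the arginine carrier SLC7A3 10.8-fold lower and the glutamine carrier SLC1A5 6.08-fold lower. Among the higher were genes of GABA neurons as well. GAD1, which makes GABA, went from 51.9 to 3647 against 276 in RA astrocytes, and SLC32A1, which loads GABA into vesicles, from 27.1 to 1049.97 against 55.9. These belong to the GABAergic markers whose summed signals are given above.

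Glucose uptake and glycolysis genes went both ways, with 3 higher and 6 lower of 30 and a median of -0.31. With equal array medians the balance turned to 5 higher and 4 lower and the median to 0.23. The glucose carriers SLC2A3 and SLC2A1 went from 1327 to 166 and from 664 to 111, 7.99-fold and 5.97-fold lower, and lactate dehydrogenase LDHA was 2.62-fold lower. ALDOC, the aldolase of mature astrocytes, was also lower, at 203 and 57.6. PDP1, the phosphatase that switches pyruvate dehydrogenase on, went the other way, from 917 to 5707, 6.22-fold higher. The single glycogen gene past 2-fold of 16 was PPP1R3C, a glycogen-targeting subunit, 3.86-fold higher; with equal array medians 3 passed, and the median went from -0.10 to 0.29. None of the 38 respiratory chain subunits compared passed 2-fold in either direction (3 higher and 0 lower with equal array medians, where the median went from -0.12 to 0.41), and NDUFB8 stood at 2289 and 2322. In the tricarboxylic acid cycle list 4 of 24 were lower and none higher, among them IDH2 at 2.14-fold lower and the malic enzyme ME1, at least 6.66-fold lower. With equal array medians that list had 1 higher and 1 lower, and its median went from -0.12 to 0.34.

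Lists of biosynthesis genes held lower members and none that was higher, but this rested on the scaling. With equal array medians the one-carbon list had 1 higher and 5 lower, the nucleotide list 1 higher and 1 lower and the cholesterol list 2 higher and 2 lower. Of 23 serine, glycine and one-carbon genes 6 were lower, led by the mitochondrial folate enzyme MTHFD2, from 2387 to 288 (8.28-fold lower), and PHGDH, the first enzyme of serine synthesis, from 1377 to 194 (7.11-fold lower). PHGDH is abundant in astrocytes of the brain. Of 26 nucleotide synthesis genes 6 were lower (median -0.61, and -0.04 with array medians set equal), with CTP synthase CTPS1 2.86-fold lower and HPRT1 of purine salvage 2.61-fold lower. Of 22 cholesterol and fatty acid synthesis genes 5 were lower, among them the sterol isomerase EBP at 2.87-fold and fatty acid synthase FASN at 2.57-fold lower. Medians of the one-carbon and cholesterol lists were -0.33 and -0.37 and became 0.20 and 0.18 with array medians set equal. DNA replication and repair genes had 8 lower and 1 higher of 36 (median -0.80, and -0.26 with equal array medians). Under that scaling none of the 8 stayed 2-fold lower and 1 was higher. The replicative helicase subunit MCM3 was 2.4-fold lower, whereas PCNA, the replication clamp, kept 4008 and 3359, within 2-fold. In RA astrocytes MCM3 stood at 237 and PCNA at 1039. The higher gene was RFC5, whose main probe set gave 1.45 and others -0.67 and -1.52.

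Genes of fat use and lipid handling differed in both directions. Of 32 fatty acid oxidation and peroxisome genes 7 were higher and 3 lower. CPT1A, the gate by which fatty acids enter mitochondria, went from 44.5 to 181 (4.07-fold higher), and OXCT1, which uses ketone bodies, was 2.56-fold higher. The acyl-CoA synthetase ACSL4, which prefers arachidonic acid, went from 463 to 30.02, 15.4-fold lower, while its relative ACSL1 was 3.15-fold higher. PMP2, a fatty acid binding protein first known from myelin, was at the floor in neuroepithelial cells and at 5186 in FGF8 astrocytes. It was at least 197-fold higher, and RA astrocytes had 4118. The lipoprotein receptor VLDLR was 4.65-fold higher. CRABP2, a carrier of retinoic acid, went from 1591 to 33.3 (47.8-fold lower), and LRP2, the large endocytic receptor of the neuroepithelial surface, from 797 to the floor (at least 30.2-fold lower). APOE, the main lipid carrier of astrocytes, was 2.59-fold lower on its main probe set, while another gave 0.30 on the log2 scale.

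Gangliosides, the sialic acid lipids of neural membranes, and their breakdown showed 11 higher and 4 lower of 34 (median 0.45). With all probe sets of a gene averaged, 6 were higher and 4 lower of 32 (median 0.38). The sialyltransferase ST8SIA5 went from the floor to 689, and ST3GAL5, which makes the parent ganglioside GM3, from 100.01 to 602, at least 26.1-fold and 6.02-fold higher. UGCG, which starts the pathway with glucosylceramide, was lower, from 1125 to 281. UGT8, the corresponding enzyme of myelin lipids, went from 143 to the floor.

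Eicosanoid and detoxification genes went both ways. PTGDS, the brain-type prostaglandin D synthase, went from the floor to 1689 (at least 64.1-fold higher), ALOX5, the lipoxygenase of leukotriene synthesis, from the floor to 281, and the phospholipase-related PLAAT4 and PLAAT3 from the floor to 865 and from 79.1 to 1019. PTGIS, prostacyclin synthase, went from 645 to the floor, at least 24.5-fold lower. That list had 7 higher and 5 lower of 24. MAOB, the monoamine oxidase of astrocytes, went from 27.2 to 379.98, 13.98-fold higher, and the epoxide hydrolase EPHX1 was 4.01-fold higher. The retinaldehyde dehydrogenases ALDH1A1 and ALDH1A3 went from 405 and 274 to the floor, and CYP1B1, a P450 that also oxidises retinoids, was 9.44-fold lower. DIO3, which inactivates thyroid hormone, went from 255 to the floor (at least 9.65-fold lower), and the thyroid hormone receptor THRA from 66.03 to 179.8 (2.72-fold higher). Detoxification genes had 6 higher and 7 lower of 27 (7 higher and 5 lower with equal array medians, where the median went from -0.28 to 0.26).

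Antioxidant genes had 4 higher and 5 lower of 42, close to the background shares (10 higher and 3 lower with equal array medians). The heme oxygenase HMOX1 went from the floor to 153, and NFE2L2, the factor that switches on antioxidant genes, was 2.25-fold higher. MGST1, a membrane glutathione transferase, differed most, from 2870.2 to 58.9, 48.7-fold lower, against 1633 in RA astrocytes. Among metal genes, with 2 higher and 4 lower of 26 (4 higher and 2 lower of 25 with equal array medians), the iron oxidase HEPH went from 823 to 63.03, 13.1-fold lower, and the zinc importer SLC39A8 from 243 to the floor.

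Lysosome genes leaned one way. Of 42 compared, 16 were higher (38.1%) and 1 was lower, with a median of 0.48. The count depended on the probe sets used. With all probe sets of a gene averaged, 6 of 39 were higher and 1 lower (median 0.47), where 10.4% of all genes were higher. The protease cathepsin H, CTSH, went from 64.9 to 630.1 (9.72-fold higher), against 33.6 in RA astrocytes. TPP1, the peptidase lost in a childhood neuronal storage disease, went from 507 to 2090.4, the protective protein CTSA from 166 to 646, and HEXA, which breaks down the ganglioside GM2, from 184 to 671. These are 4.12-fold, 3.9-fold and 3.64-fold higher. SMPD1, the acid sphingomyelinase, was 5.95-fold higher, and CLCN7, the chloride-proton exchanger of the lysosome membrane, 2.83-fold higher. The exception was CTSC, a protease that activates others, from 558 to 236, 2.37-fold lower. Autophagy genes had 5 higher (16.1%, against 12.8% of all genes) and 1 lower of 31 (median 0.40). When probe sets were averaged, 3 of 30 were higher and 2 lower (median 0.21). The receptor OPTN was 3.07-fold and the membrane-binding WIPI1 2.79-fold higher. RETREG1, a receptor for the removal of endoplasmic reticulum, was among the 20 largest of all genes, from 44.8 to 2446.

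Other protein quality genes moved less. In the proteasome list 1 of 28 passed 2-fold, PSMD3 at 2.64-fold lower. Of 35 endoplasmic reticulum folding genes 1 was higher and 3 lower, and the chaperone HSPA5 kept 4209 and 4126. Cytosolic chaperones had 6 lower and 1 higher of 29. The higher gene was CRYAB, the small heat shock protein of glia, 2.74-fold higher, and its relative HSPB8 went from 232 to the floor. Ribosome biogenesis genes had 3 lower of 40 and none higher. The medians of these lists lay between -0.35 and -0.06 and between 0.19 and 0.40 with array medians set equal, where the proteasome list had 0 higher and 0 lower, endoplasmic reticulum folding 6 higher and 3 lower, cytosolic chaperones 3 higher and 2 lower and ribosome biogenesis 1 higher and 0 lower.

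**Figure D4:**
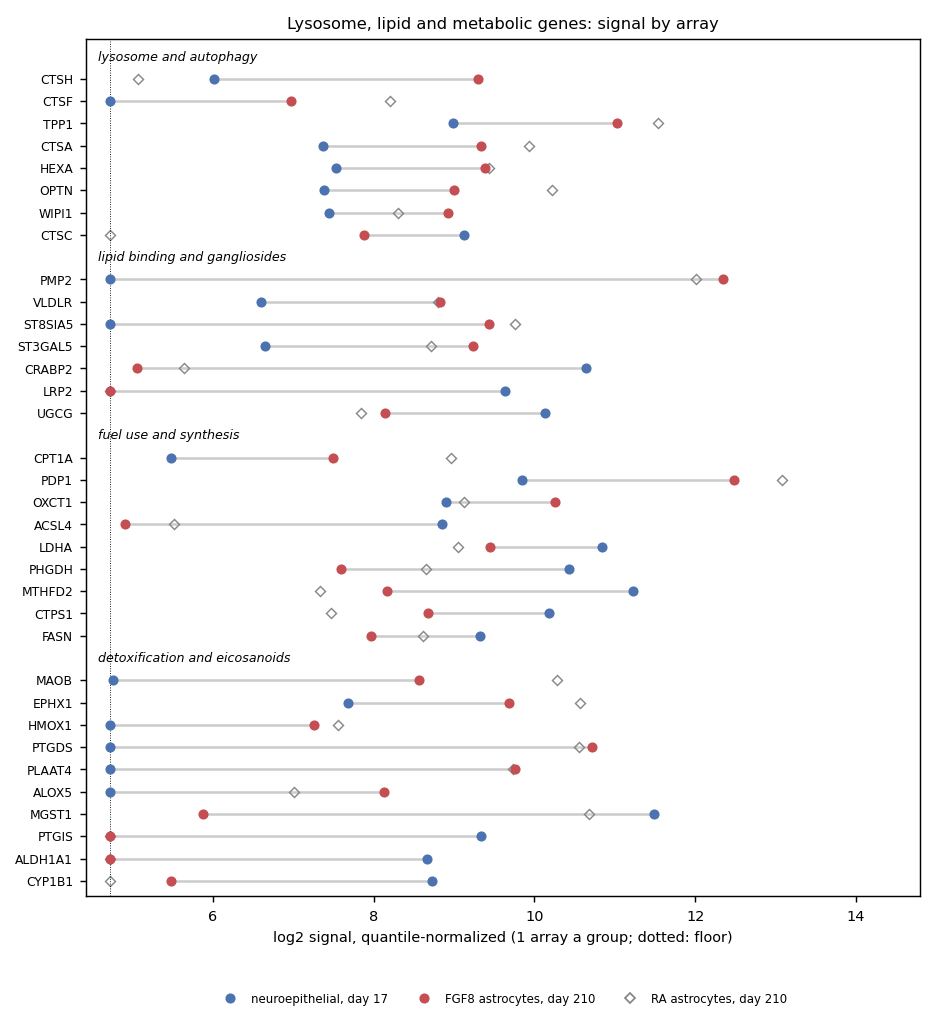
The log2 signal (x axis) of named lysosome, lipid, fuel and detoxification genes is plotted for neuroepithelial cells (blue), FGF8 astrocytes (red) and RA astrocytes (open diamonds), 1 array each. Lysosome genes other than CTSC lay higher in FGF8 astrocytes, while CTSH lay lower in RA astrocytes than in neuroepithelial cells. PMP2, ST8SIA5 and PTGDS left the floor, and MTHFD2, PHGDH, ACSL4 and MGST1 lay lower.

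Genes of the actin cytoskeleton and targets of SRF and YAP were lower more often than the background share of 10.2%. SRF is the factor that binds the CArG box, a DNA element of muscle and actin gene promoters. Of 44 compared, 20 were lower (45.5%) and 4 higher, with a median of -0.82, and -0.27 with array medians set equal. Immediate early genes leaned the other way, with 8 higher and 3 lower of 21 (median 0.75). In 250-base windows just upstream of RefSeq start sites, on both strands, the CArG box was found in 407 of 35116 windows (1.16%) and in 11 of the 67 windows of the actin list (16.4%), a list that was chosen partly for known SRF targets. It was found in 1 of the 23 windows of immediate early genes (4.35%), that of EGR1. Among actin list genes with a box, FHL2 (-0.30), CNN2 (-0.88) and SRF itself (-0.57) lay within 2-fold, by their log2 differences. Overlapping windows of FHL2 hold the same box, which was counted in each. Windows of 3 lower actin genes and of the higher gene EGR1 are shown with their CArG boxes in capitals (RefSeq, GRCh38.p14).
ACTC1 (chr15:34795550-34795799, minus strand): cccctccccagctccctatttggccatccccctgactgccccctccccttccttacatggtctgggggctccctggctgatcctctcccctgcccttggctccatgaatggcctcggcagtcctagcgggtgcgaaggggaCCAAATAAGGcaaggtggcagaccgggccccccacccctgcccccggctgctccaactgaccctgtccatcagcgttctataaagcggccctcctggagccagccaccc
ACTG2 (chr2:73892758-73893007, plus strand): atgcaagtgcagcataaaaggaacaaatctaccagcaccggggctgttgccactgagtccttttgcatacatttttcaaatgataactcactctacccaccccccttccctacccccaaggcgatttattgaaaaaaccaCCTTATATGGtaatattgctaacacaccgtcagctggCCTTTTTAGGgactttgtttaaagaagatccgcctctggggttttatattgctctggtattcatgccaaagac
MYLK (chr3:123620549-123620798, minus strand): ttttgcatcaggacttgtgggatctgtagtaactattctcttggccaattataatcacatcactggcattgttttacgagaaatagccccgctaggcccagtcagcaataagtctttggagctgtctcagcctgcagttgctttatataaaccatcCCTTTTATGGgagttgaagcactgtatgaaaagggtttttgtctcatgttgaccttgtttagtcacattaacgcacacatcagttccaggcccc
EGR1 (chr5:138465229-138465478, plus strand): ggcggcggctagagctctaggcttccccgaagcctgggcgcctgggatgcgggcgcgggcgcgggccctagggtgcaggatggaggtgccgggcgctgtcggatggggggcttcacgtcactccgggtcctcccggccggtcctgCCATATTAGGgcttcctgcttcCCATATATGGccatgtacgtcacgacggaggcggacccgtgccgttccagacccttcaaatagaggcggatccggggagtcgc
The boxes end 100 bases upstream of the start in ACTC1, 101 and 64 in ACTG2, 85 in MYLK, and 96 and 74 in EGR1. A match is a description of the sequence, not evidence of binding. ACTC1, the cardiac actin that embryonic cells also use, went from 3598 to 37.3 (96.6-fold lower, the largest measured on both arrays), ACTG2, the actin of gut smooth muscle, from 323 to the floor, and MYLK, the kinase that starts contraction, from 429.8 to the floor. ACTG2 is given here because of its promoter and was chosen after its value was seen. The tropomyosin TPM2 went from 954 to the floor, TAGLN, an actin-binding protein of smooth muscle, from 3304 to 118, and CCN2, a matrix-linked YAP target, from 2469.5 to 52.2, at least 36.2-fold, 27.9-fold and 47.3-fold lower. RA astrocytes kept 556 of MYLK and 2047 of TAGLN, and had 44.9 of TPM2. Higher were the adaptor TGFB1I1, 7.93-fold, which also has a CArG box in 1 of its windows, and WWTR1, the YAP relative TAZ, 4.67-fold. Muscle and fibroblast markers were lower too, by the summed signals above, but those sums include genes just described. In neuroepithelial cells ACTC1 gave 3598 of the muscle sum of 4087 and TAGLN 3304 of the fibroblast and pericyte sum of 16052.

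Among immediate early genes FOS went from 62.5 to 1819 (29.1-fold higher), its partner JUN from 227 to 1186, EGR1 from 469 to 2129 and ZFP36, which shortens the life of cytokine messages, from 54.3 to 342. In RA astrocytes these 4 stood at 1636, 936, 963 and 407. The exceptions were IER3, a survival gene, from 1014 to the floor (at least 38.4-fold lower), CCN1, a matrix protein and YAP target, 4.62-fold lower, and DUSP1, a phosphatase of MAP kinases, 2.93-fold lower.

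Epithelial junction genes were lower as well, 15 of 34 (44.1%) against 4 higher. Keratins and desmosomes, which give epithelia their strength, were at the floor in FGF8 astrocytes: KRT18 from 1587, KRT8 from 711, desmoplakin DSP from 1012, the desmosomal cadherins DSC2 from 973 and DSG2 from 894. Their bounds run from at least 26.97-fold for KRT8 to at least 60.2-fold for KRT18. KRT8 and KRT18 are also markers of endoderm, whose other markers AFP and KRT19 were lower too. Not all junction genes were lower. TJP1, the tight junction scaffold, had 2189 and 2439.8. CRB1, of the apical polarity complex, was 6.08-fold higher and the adhesion molecule JAM2 2.89-fold higher.

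The extracellular matrix differed by component. Among collagens, laminins and integrins 20 of 44 were lower and 6 higher (median -0.61, and -0.13 with array medians set equal). The fibrillar collagens COL1A1 and COL3A1 went from 5024 and 1497 to the floor, at least 191-fold and at least 56.8-fold lower, and the basement membrane chain COL4A6 from 2223 to 131. COL9A3, a chain of a cartilage-type collagen, went from the floor to 821, and the integrin ITGB8, by which astrocytes activate TGF-beta, from 1178 to 5225. Proteoglycan genes had 13 higher and 15 lower of 41 (13 higher and 10 lower with equal array medians). The higher included genes of the hyaluronan matrix of brain: CD44, the hyaluronan receptor, from 44.3 to 6914 (156-fold higher), neurocan NCAN from 143 to 3340.3, tenascin TNC from 1107 to 7773 and the hyaluronan synthase HAS2 from 52.1 to 455. The lower included the heparan sulfate carriers GPC3, from 1399 to the floor, and SDC2, 7.26-fold lower, the heparan sulfate sulfotransferase HS6ST2, 27.98-fold lower, and lumican LUM, a fibroblast proteoglycan, from 885 to the floor. HS3ST3B1, another heparan sulfate sulfotransferase, was 33.9-fold higher. Matrix proteases went both ways (11 higher, 8 lower of 32), with ADAMTS3, which trims procollagen, 14.1-fold higher and MMP9 from 178 to the floor.

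**Figure D5:**
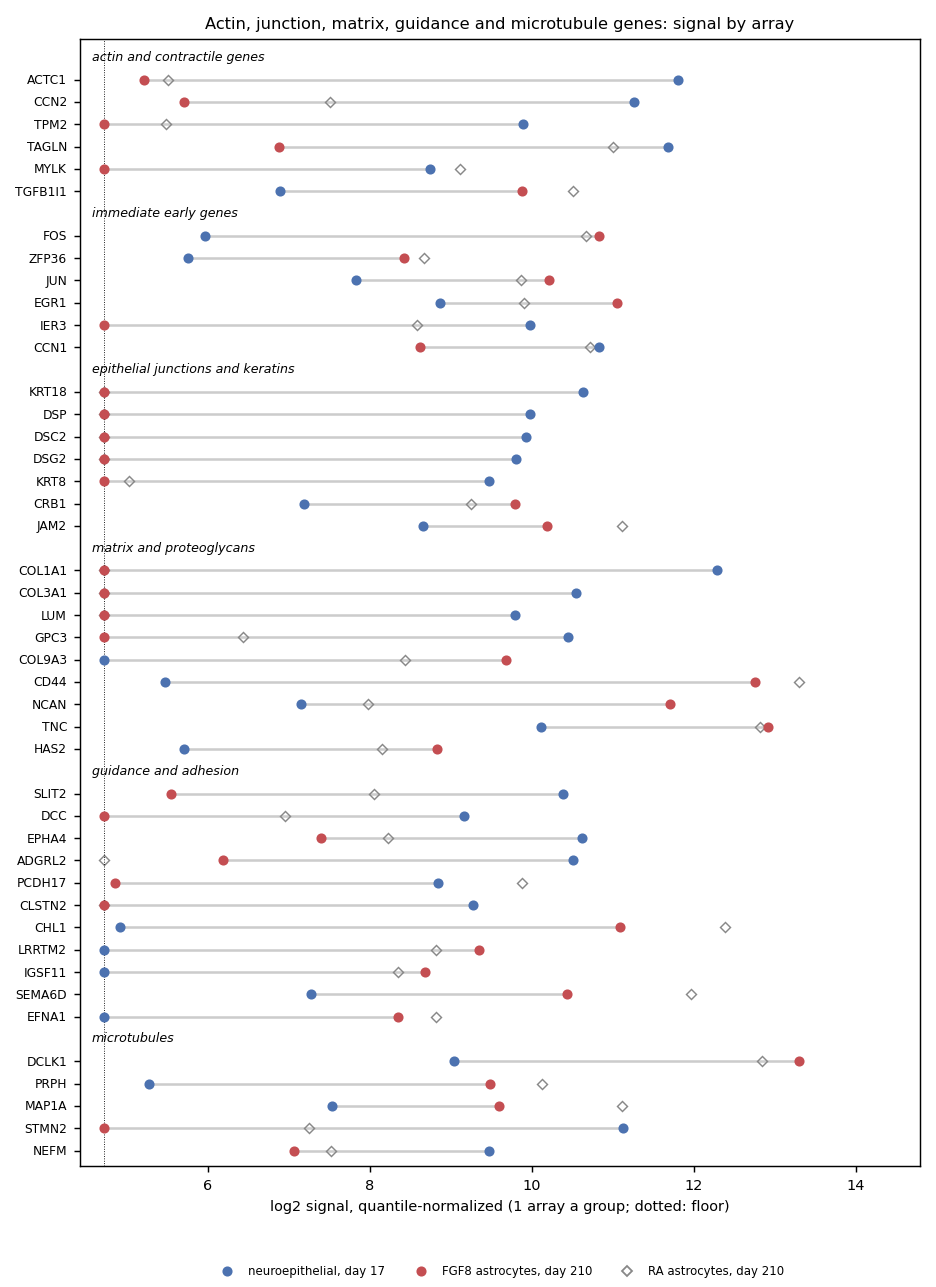
The log2 signal (x axis) of named actin, immediate early, junction, matrix, guidance and microtubule genes is plotted for neuroepithelial cells (blue), FGF8 astrocytes (red) and RA astrocytes (open diamonds), 1 array each. Keratin, desmosome and fibrillar collagen genes lay at the floor in FGF8 astrocytes, and TAGLN, MYLK and PCDH17 were far lower there than in RA astrocytes.

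Guidance cues and adhesion molecules went both ways. In the guidance list 11 of 52 were higher and 16 lower, both above the background shares; with equal array medians the balance turned to 16 higher and 11 lower. SLIT2, a midline repellent, went from 1337 to 46.9 (28.5-fold lower), DCC, the netrin receptor, from 573 to the floor, and the ephrin receptor EPHA4 from 1579 to 169. Higher were the ephrin EFNA1, from the floor to 326, the receptor EPHA3, from 297 to 2281, and the semaphorins SEMA5B and SEMA6D, 9.2-fold and 8.98-fold higher. Adhesion molecules of the immunoglobulin and synaptic kind had 14 higher and 15 lower of 48 (18 higher and 14 lower with equal array medians). CHL1, a relative of L1, went from 30.2 to 2179.7 (72.2-fold higher), and the synaptic organisers LRRTM2 and IGSF11 from the floor to 652 and 412. The latrophilin ADGRL2 went from 1463 to 72.8 and CNTNAP2, a neurexin relative, from 1239 to 111, 20.1-fold and 11.2-fold lower. Cadherins had 6 higher and 10 lower of 33 (9 higher and 9 lower with equal array medians, where the median went from -0.10 to 0.05): PCDH10 was 6.31-fold higher, and FAT4, a large cadherin of planar polarity, went from 378 to the floor. The clustered PCDHB16 was 14.6-fold higher, but genes of that cluster are much alike and its probe set may bind others.

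Microtubule genes leaned higher, 14 of 41 against 6 lower. The doublecortin-like kinase DCLK1 went from 529 to 10076, 19.04-fold higher, tau MAPT from 95.2 to 599.7, and the peripheral neuron filament PRPH from 38.7 to 716. STMN2, of young neurons, went from 2238 to the floor (at least 84.9-fold lower) and the neurofilament NEFM from 711 to 133. Cilia and centrosome genes stayed near the background, with 4 higher and 1 lower of 33, RFX4, a factor of neural cilia, among the higher at 4.4-fold.

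Release machinery and peptide genes went both ways. Vesicle genes had 7 higher and 9 lower of 41 (8 higher and 7 lower of 42 with equal array medians). SYNPR, a vesicle membrane protein, was among the largest differences, from 36.6 to 1459.5 with the floor in RA astrocytes, and the calcium sensors SYT4 and SYT13 went from 169 and 174 to the floor. Of 19 peptide and hormone genes 10 were lower (52.6%) and 3 higher, with a median of -1.01. The share depended on the setting: 6 were lower and 3 higher with equal array medians, and with the floor at the 70th percentile 4 were lower and 3 higher of 12, with a median of -0.02. Somatostatin SST went from 858 to the floor (at least 32.5-fold lower), the natriuretic peptide NPPB from 428 to the floor and endothelin EDN1 from 204 to the floor. The 3 higher were neuropeptide Y, NPY, from 32.2 to 623, secretogranin SCG2, from 77.5 to 1034, and angiotensinogen AGT, an astrocyte product, from 39.2 to 299.7. Postsynaptic scaffolds had 3 higher and 6 lower of 27 (6 higher and 5 lower with equal array medians).

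Receptors for growth factors and cytokines differed widely. PDGFRA, the receptor of glial progenitors, went from 173 to 5997 (34.8-fold higher), against 794 in RA astrocytes, and its ligand PDGFA from 74.9 to 496. LIFR and OSMR, receptors of the cytokine family that drives astrocyte formation, went from 277 to 3598 and from 43.2 to 1911, 12.998-fold and 44.3-fold higher. CSF1, which sustains microglia, was 7.78-fold higher. The stem cell factor KITLG was 5.52-fold higher, while its receptor KIT went from 326 to the floor. The growth factor list had 13 higher and 14 lower of 45 (14 higher and 11 lower with equal array medians), with IGF1R 3.48-fold and the binding protein IGFBP3 6.06-fold lower. Among cytokines, 8 higher and 3 lower of 23, the TNF receptor TNFRSF1A was 5.27-fold higher, and osteopontin SPP1 went from 1157 to the floor (at least 43.9-fold lower), against 561 in RA astrocytes. The chemokine CXCL12 stood at 133 in neuroepithelial cells, 1054 in FGF8 astrocytes and the floor in RA astrocytes.

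Genes of complement, innate sensing and antigen presentation leaned higher, while microglia markers were at the floor. In the complement and coagulation list 11 of 23 were higher and 4 lower (median 0.92). The protease trap A2M went from 72.1 to 8167 (113-fold higher), complement factor I, CFI, from the floor to 1299 and the protease C1S from the floor to 469. SERPINE2, a thrombin inhibitor, went from 1104 to 185, 5.95-fold lower. Innate sensing genes had 7 higher and 2 lower of 21, led by the DNA sensor IFI16, from 36.3 to 2628 (72.3-fold higher), and the antiviral protein TRIM22, 14.6-fold higher. In the antigen presentation list 17 of 24 were higher and none lower, although probe sets of HLA genes can bind several family members. The peptide transporter TAP1 went from 37.2 to 438 and the light chain B2M from 2455 to 12259, 11.8-fold and 4.99-fold higher. The class II chain HLA-DRA went from the floor to 869.6, against 6797 in RA astrocytes.
The letters GAAANNGAAA, a core of the element bound by interferon-activated factors, were found on either strand in 1061 of 35116 upstream windows (3.02%). They were in 7 of the 28 windows of the antigen presentation list (25%) and in 4 of the 35 of the innate sensing list (11.4%). Among antigen presentation genes with a match, HLA-F and PSMB10 lay within 2-fold and ERAP2 was not compared. These 2 windows of higher genes each hold overlapping matches, in capitals (RefSeq, GRCh38.p14), and the CArG box does not overlap them.
TAP1 (chr6:32853705-32853954, minus strand): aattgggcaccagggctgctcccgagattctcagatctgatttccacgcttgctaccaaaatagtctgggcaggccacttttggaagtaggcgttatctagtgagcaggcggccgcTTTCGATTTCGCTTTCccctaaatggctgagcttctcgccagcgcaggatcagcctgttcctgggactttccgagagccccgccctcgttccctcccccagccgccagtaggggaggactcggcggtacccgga
B2M (chr15:44711267-44711516, plus strand): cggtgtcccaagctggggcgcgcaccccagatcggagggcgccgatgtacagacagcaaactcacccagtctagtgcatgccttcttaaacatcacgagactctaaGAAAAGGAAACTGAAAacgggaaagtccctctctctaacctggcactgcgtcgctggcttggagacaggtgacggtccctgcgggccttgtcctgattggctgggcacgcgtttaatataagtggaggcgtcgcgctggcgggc
The matches end 125 and 119 bases upstream of the start in TAP1 and 135 and 129 in B2M. They are matches of letters only.

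Few chromatin genes passed 2-fold, and some receptors of hormones did. Of 51 chromatin genes 3 were higher and 7 lower (7 higher and 4 lower with equal array medians, where the median went from -0.28 to 0.26). The remodeller SMARCA2 went from 52.7 to 478 (9.07-fold higher), and the methyltransferase DNMT3B from 549 to 109 (5.02-fold lower). The glucocorticoid receptor NR3C1 went from 61.5 to 543, 8.82-fold higher, and ZBTB16, a progenitor factor, from 509 to the floor. NR2F1, a nuclear receptor of early patterning, stood at 1131 in neuroepithelial cells, the floor in FGF8 astrocytes and 2679 in RA astrocytes. Nuclear receptors and coregulators had 5 higher and 5 lower of 26 (7 higher and 5 lower with equal array medians). In the clock list 4 of 20 were higher and 1 lower, with BMAL1, a core clock factor, from 50.5 to 237 and its repressor BHLHE41 from the floor to 249.9.

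Among RNA-binding proteins and lamins, related genes went opposite ways. Of 42 RNA-binding genes 5 were higher and 9 lower (7 higher and 5 lower with equal array medians, where the median went from -0.40 to 0.00). IGF2BP1, a let-7 target that stabilises fetal messages, went from 901 to the floor (at least 34.2-fold lower) and RBM24, a splicing factor of muscle, from 454 to the floor. Of the neuronal Hu proteins, ELAVL3 was 2.54-fold higher and ELAVL4 4.25-fold lower. The A-type lamin LMNA went from 136 to 331 and the B-type lamin LMNB1 from 1482 to 645. The nuclear lamina and pore list had 3 higher and 3 lower of 38 (4 higher and 0 lower with equal array medians, where the median went from -0.41 to 0.10). Growth arrest and p53 target genes had 6 higher and 4 lower of 30 (15 higher and 3 lower with equal array medians), with the inhibitor CDKN1A 2.34-fold higher and its relative CDKN1C from 1823 to 52.4, 34.8-fold lower. In the hypoxia list 9 of 32 were lower and 3 higher, among them DDIT4, an inhibitor of mTOR signalling, at 3.73-fold lower, and the oxygen-regulated factor EPAS1 at 4.41-fold lower. The hypoxia median was -0.18, or 0.23 if array medians are set equal, when the list had 5 higher and 5 lower.

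Among the reference genes 1 of 16 compared was higher and 1 lower, B2M and HPRT1 described above. With equal array medians the reference list had 1 higher and 0 lower, and its median went from -0.07 to 0.45. GAPDH stood at 11354 and 11491 and ACTB at 17449.8 and 14831. Across the 59 function lists the share of members past 2-fold higher ran from 0% to 70.8% and the share lower from 0% to 52.6%.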

How the data were processed

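Total RNA of 3 H9-derived cultures, 1 array each, was extracted with Trizol, cleaned on columns and biotin-labelled at a core facility, per the labels' protocols. The authors deposited 1 intensity per probe set, linear and scaled per array. How signal was computed from the probes is not stated in the labels. Intensities were quantile-normalized over the 3 arrays without the 62 control probe sets, floored at the median and brought to log2 with pandas 2.3.3 and numpy 2.4.6 under Python 3.11.15.

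GEO's platform annotation gave 41091 probe sets with 1 symbol, 1801 with several and 11721 with none, and only the first were used; 41037 matched a RefSeq gene by identifier. Each gene took its brightest probe set by mean over the 3 arrays, avoiding the cross-hybridising type (_x_at) where it had another. The call was a 2-fold difference, and the step was tested on simulated data. With 1 array a group, no spread between separate cultures was measured.

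The 59 function and 14 marker lists named 2353 genes, of which 183 had no probe set of 1 symbol. Genes named are the 20 largest differences and 10 largest bounds in each direction, up to 5 members of each list per direction, up to 2 members within 2-fold, and always GFAP, S100B, AQP4, PAX6, SOX2, ACTB and GAPDH. Comparison, lists and rule were chosen with earlier results of these data known. Genes of sex-specific expression entered counts only. Promoter windows and mature microRNAs are RefSeq's (GRCh38.p14). Alternatives were other scalings, floors, probe set choices and fold thresholds.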

Additional observations from a re-analysis of the deposited data

Results flagged for a closer look

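Some genes were at least 2-fold apart from neuroepithelial cells in opposite directions in the FGF8 and the RA astrocytes. The difference between the astrocyte arrays was not tested, since each is 1 array, and both comparisons share the neuroepithelial array. Values are log2 differences, astrocytes minus neuroepithelial cells, FGF8 first, and those with an array at the floor are bounds.

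Higher after FGF8 and lower after RA were DLX1, a homeobox gene of ventral forebrain neurons (3.32 and -1.52), DCX, a microtubule protein of migrating neurons (1.71 and -1.82), SCG3, a granule protein (2.19 and a bound of -1.75), the neuregulin receptor ERBB3 (1.93 and a bound of -1.61), the chemokine CXCL12 (2.98 and a bound of -2.34) and the p53 target TP53INP1 (1.42 and -1.14). DLX1, DCX and SCG3 are neuronal markers.

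Lower after FGF8 and higher after RA were the nuclear receptor NR2F1 (a bound of -5.42, and 1.24), the protocadherin PCDH17 (-3.99 and 1.04), the teneurin TENM4 (-3.07 and 2.56), the IGF-binding protein IGFBP5 (-2.62 and 2.28), the matrix protease ADAMTS5 (a bound of -1.56, and 1.33), the carbonic anhydrase CA2 (-1.50 and 1.61), the neural crest factor TFAP2B (-1.37 and 1.21), the calcium buffer CALB1 (-1.20 and 1.44), the protein C receptor PROCR (a bound of -1.19, and 1.26) and the microtubule protein MAP7 (a bound of -1.04, and 3.64).

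Probe sets with no gene symbol in the annotation were not part of the comparison of genes. Of 4313 above the floor on at least 1 array, 391 were at least 2-fold higher in FGF8 astrocytes (9.07%) and 338 lower (7.84%), against 12.8% and 10.2% of genes.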

How the results depend on the processing

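No paired analysis was possible because each group has 1 array, and no replicate could be left out. The counts of genes at least 2-fold higher and lower were 1666 and 1332. The higher count was 2853 with array medians set equal, 1046 with the floor at the 70th percentile and 3948 without a floor. The lower count was 2123 with the floor at the 30th percentile, 787 with it at the 70th and 3509 without one. At 1.5-fold the counts were 3048 and 2552, and at 4-fold 483 and 456. With more genes left above the floor more pass, and with a smaller fold as well. The cause of the shift with equal array medians was not tested.

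Of 576 recomputed list medians, taken relative to the median of all genes, 571 stayed within the 95% binomial interval of the median over members. None was counted as reversed, but only lists with a median of at least 2-fold could be, and most lists had a smaller one. Taking medians relative to all genes also removes a shift common to all genes. Without that step, medians of 19 of 59 function lists changed sign with equal array medians. On the values as deposited 8 did, with probe sets of a gene averaged 8, and at most 6 under each other setting. The respiratory chain went from -0.16 to -0.025 on the values as deposited and -0.0064 under equal array medians, DNA replication from -0.85 to -0.69 under equal array medians, and fibroblast and pericyte markers from -3.36 to -1.45 when probe sets of a gene were averaged and -1.02 without _x_at and _s_at probe sets. The cause was not tested. The balance of higher and lower calls turned round in 17 of 59 function lists under equal array medians, in none on the values as deposited or with 2 arrays normalized alone, and in 1 to 4 under each of the other settings of floor and probe sets.

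Of 4657 recomputed gene values 15 changed direction, all where other probe sets were used. Such a change was counted only for genes that were at least 2-fold apart to begin with. A further 969 values moved by more than 0.46 log2 units, the median difference between probe sets of a gene. Averaging the probe sets, CALR became 0.013, CST3 -0.54, DPYSL3 -0.28, FEZF2 0.12, GNAS 0.61, P4HA1 0.75, RBPMS 0.037, RFC5 -0.24 and SREBF1 0.19. Without _x_at and _s_at probe sets DPYSL3 became -0.015, MBD2 -1.83, NFKB2 0.40, NOVA2 -0.18, PPAT 0.83 and SQSTM1 -0.65. Signal near the floor limits the folds of dim genes.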
